A study of Mus musculus with 46 samples.

Results

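The genes described here are 33 mouse genes of cardiac calcium handling and ion channels, among 55359 genes of a heart RNA-seq count table. They were taken by gene name from a list of calcium release and uptake, sarcolemmal calcium, sodium, potassium and pacemaker genes, and each name matched 1 gene. Levels were read in 46 libraries of adult hearts, and the labels do not say which chambers they hold. All 33 passed the filter on low counts in both library kits, so the members that passed are the whole list.

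The study deleted Lmna, which encodes the nuclear lamins A and C, in heart muscle cells and asked what follows for the heart with and without cGas, a sensor of cytosolic DNA. Every animal carried the transgene Myh6MCM Tg/0 (written My6MCM on the F/F libraries of the time course), a Cre recombinase that the Myh6 promoter drives in cardiomyocytes and that tamoxifen switches on. Other cells of the heart keep Lmna in this model, and controls received the same Cre and the same drug. Tamoxifen was injected intraperitoneally in corn oil when mice were 6 to 8 weeks old, 100 µL of 4 mg/mL daily over 4 days. The time course was sequenced with the NEBNext kit. It holds Lmna F/F hearts taken 1 week (n = 4), 11 days (n = 2) and 2 weeks (n = 5) after tamoxifen and Lmna +/+ hearts, called wild type here, at the same times (n = 5, 3 and 7). A second experiment, made with a QuantSeq kit that reads transcripts near their 3' ends, holds hearts of 2 weeks in 4 genotypes. These are Lmna F/F with cGas +/+ (n = 6), Lmna F/+ with cGas +/+ (n = 6), Lmna F/F with cGas null/null (n = 4) and Lmna F/+ with cGas null/null (n = 4). Over both experiments 27 libraries were labelled male and 19 female. All libraries of Lmna F/+ with cGas null/null were male, and every other group held both sexes. The F/+ controls carry 1 floxed allele that the same Cre can delete. The labels do not say that libraries came from separate mice, so every p-value measures the spread between these libraries.

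In each heartbeat calcium enters a cardiomyocyte through L-type channels of the surface membrane and opens the ryanodine receptor of the sarcoplasmic reticulum, the internal calcium store. The SERCA pump, held back by phospholamban, then returns calcium to the store, and the sodium-calcium exchanger carries the rest out. Sodium channels start the action potential, potassium channels end it and set the resting voltage, and HCN channels carry the pacemaker current.

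Total counts were 8477358 to 25856892 in the 26 NEBNext libraries and 22099181 to 33993289 in the 20 QuantSeq libraries. Lmna itself averaged 33.3 ± 4.38 CPM (counts scaled to library size) in F/F and 59.0 ± 9.22 CPM in wild type hearts at 1 week (SD, exact two-sided permutation test, p = 0.0159). At 2 weeks it averaged 85.2 ± 26.9 CPM in F/F and 113 ± 7.02 CPM in wild type hearts (SD, p = 0.0101 by the same exact test). The groups overlapped there: F/F replicates 2 and 3, at 107.9 and 108.3 CPM, lay inside the wild type range of 104.8 to 124.9 CPM. At 11 days Lmna did not separate the arms, with 58.4 ± 0.0513 CPM in the libraries labelled F/F and 92.2 ± 35.2 CPM in wild type (SD, exact permutation p = 0.4, smallest possible 0.1), so they are called labelled F/F below. QuantSeq tags of Lmna did not separate the genotypes (exact permutation p = 0.504 with cGas and 0.686 without), and tags outside the deleted part would check nothing. Cgas averaged 0.876 ± 0.258 CPM in null and 2.88 ± 0.765 CPM in wild type cGas hearts on F/F (SD, exact permutation p = 0.00952). Markers of cardiomyocytes were detected in every group and none was at 0. Replicate 1 of the F/F hearts at 2 weeks stood apart from the other 4: it had the lowest Lmna of its group, 42.3 CPM against 82.8 to 108 CPM, and 28.93% of its counts were mitochondrial, against 9.16% to 15.24% in the others. The number of calls at 2 weeks and the members' median are therefore also given without it. Values of single genes at 2 weeks include it unless stated otherwise.

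Promoter sequences are shown for the genes that carry the main result and that the sequence table covers. Kcnip2 and Hrc were lower in F/F hearts in both experiments, and Fkbp1b was the member that went up at 2 weeks. Each sequence is the 250 bases before a RefSeq transcription start (GRCm38.p6), 5' to 3' on the strand of the gene. Capitals mark CACCC or its reverse complement GGGTG, the short core of sites that Krüppel-like factors bind. The Kcnip2 promoter is chr19:45816064-45816313 on the minus strand, that of Hrc is chr7:45335019-45335268 on the plus strand and that of Fkbp1b is chr12:4841574-4841823 on the minus strand.
Kcnip2: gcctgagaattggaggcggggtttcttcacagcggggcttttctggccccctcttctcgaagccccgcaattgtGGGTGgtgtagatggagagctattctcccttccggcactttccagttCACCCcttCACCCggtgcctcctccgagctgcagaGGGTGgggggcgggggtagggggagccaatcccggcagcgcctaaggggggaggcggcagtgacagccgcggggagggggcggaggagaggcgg
Hrc: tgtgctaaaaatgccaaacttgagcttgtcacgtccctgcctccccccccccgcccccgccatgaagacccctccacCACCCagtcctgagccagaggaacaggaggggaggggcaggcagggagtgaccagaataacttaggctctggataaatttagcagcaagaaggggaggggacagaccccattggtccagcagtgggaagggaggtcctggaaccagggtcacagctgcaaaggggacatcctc
Fkbp1b: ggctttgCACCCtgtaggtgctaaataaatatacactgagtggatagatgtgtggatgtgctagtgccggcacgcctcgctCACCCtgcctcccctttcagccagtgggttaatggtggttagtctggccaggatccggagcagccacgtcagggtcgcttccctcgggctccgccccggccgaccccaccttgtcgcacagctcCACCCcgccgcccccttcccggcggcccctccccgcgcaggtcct

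The Kcnip2 window holds the motif 4 times, that of Fkbp1b 3 times and that of Hrc 1 time, counting both strands. The motif is common: 52.01% of all 32851 promoters of this length hold it, and 20 of 31 promoters of members do. Promoters were listed for 27 of the 33 members, some with more than 1 start. The MEF2 motif, CTA and TAG with 4 bases between them, was in 0 of the 31, against 3.2% of all promoters, the GATA motif AGATAA in 2, against 9.99%, and the MCAT motif CATTCC in 4, against 12.64%. Matches are descriptions of letters, and a window without one says nothing about a factor.

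Per transcript length, the 4 most abundant members were genes of the calcium store. In the deposited TPM (a level that divides by transcript length), phospholamban, Pln, averaged 2921 ± 1082 TPM in F/F and 4135 ± 470.3 TPM in wild type hearts at 2 weeks (SD, n = 5 and 7). The SERCA pump gene Atp2a2 averaged 1528 ± 208 TPM in F/F and 1910.1 ± 212 TPM in wild type hearts. Hrc and Casq2, which encode calcium-binding proteins of the store lumen, came next in both genotypes. Hcn4, the main channel of the sinoatrial pacemaker, was the lowest member in both, at 0.677 ± 0.295 TPM in F/F and 0.955 ± 0.23 TPM in wild type hearts. Neighbours in this order often overlapped: in wild type hearts the ranges of Jph2 (95.6 to 156 TPM) and Atp1b1 (93.8 to 121 TPM) crossed, and those of Pln (3685 to 5073 TPM) and Atp2a2 (1621 to 2256 TPM) did not.

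**Figure D1:**
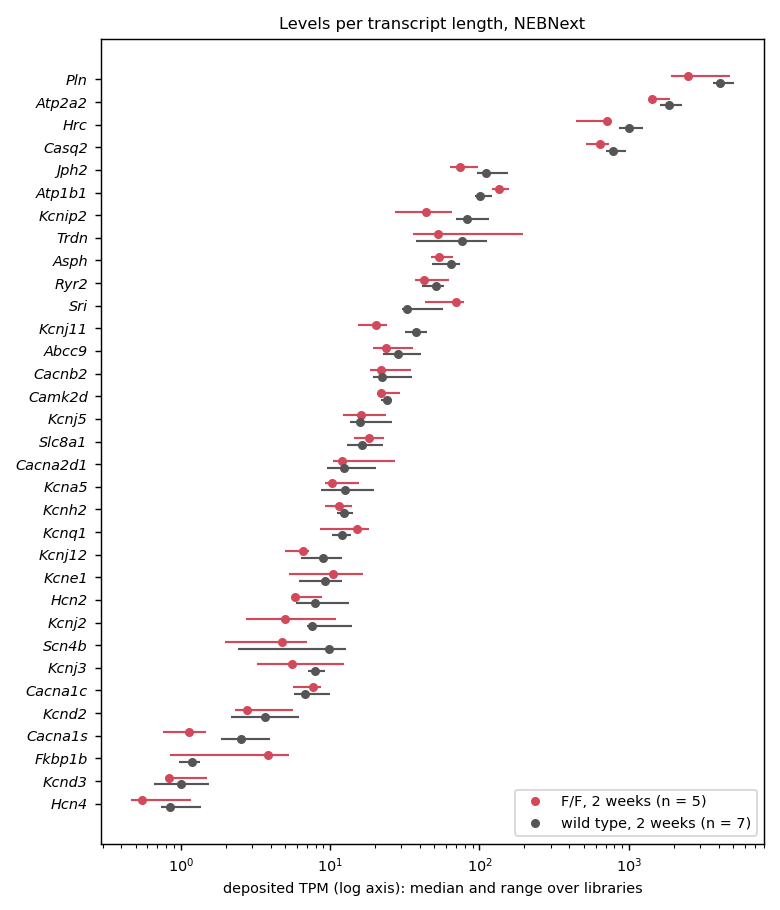
Deposited TPM of the 33 genes (log axis) in F/F (red, n = 5) and wild type hearts (grey, n = 7) at 2 weeks, NEBNext kit. Points are medians and lines run from the lowest to the highest library. Pln, Atp2a2, Hrc and Casq2 lie above the channels by more than their ranges, and Hcn4, Kcnd3, Fkbp1b and Cacna1s lie at the low end.

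At 1 week after tamoxifen 0 of the 33 passed the threshold (edgeR quasi-likelihood test, Benjamini-Hochberg adjusted p under 0.05 over 15627 genes), where 0.0256% of all genes did, 0.0064% higher and 0.0192% lower. Scaled to 16 contractile genes of cardiomyocytes, and in deposited TPM, 0 members passed too, with 0.0192% and 0.032% of all genes. At an unadjusted p under 0.05 the same test found 1539 genes, and DESeq2 also called 0 members. The members' log2 fold changes ran from -0.77 to 0.72 with a median of -0.14, beside a median of 0 over all genes. Fkbp1b, which encodes the FKBP12.6 subunit that stabilises the ryanodine receptor, was the member whose groups did not overlap, with 0.542, 0.578, 0.832 and 0.637 CPM in F/F hearts and 0.886, 0.952, 1.51, 0.948 and 1.38 CPM in wild type hearts. All F/F libraries were below all wild type libraries, as for 1.03% of all genes (1.7% were higher in F/F without overlap, 2.73% in all), and the adjusted edgeR p was 0.579. These values rest on 7 to 15 reads in an F/F library and 10 to 17 in a wild type library.

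At 11 days no member was called either, and 0% of all genes were. There, edgeR left 1302 genes at an unadjusted p under 0.05, and DESeq2 called 0 members. Log2 fold changes of labelled F/F against wild type hearts ran from -0.89 to 0.87, with a median of -0.14, beside -0.07 over all genes. Groups of 2 and 3 libraries did not overlap for Jph2, Kcnj12 and Hcn4, all higher in labelled F/F, and for Scn4b and Kcnd2, both lower. Over all genes 7.04% were higher without overlap and 11% lower, so 5 of 33 is near the background of 18.1%. Fkbp1b overlapped, with 1.11 and 2.44 CPM in labelled F/F and 0.834, 4.76 and 2.06 CPM in wild type hearts.

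At 2 weeks the calcium store and channel genes were mostly lower in F/F hearts. Of the 33 members 14 fell and 1 rose, where 13% of all genes fell and 16.2% rose (29.2% called in all). Their median log2 fold change was -0.53, beside 0.04 over all genes, and 29 of 33 were below 0. Cacna1s, Kcnip2 and Kcnj11 were the lowest, at 0.319, 0.396 and 0.434 of the wild type mean. Counted per transcript of contractile genes, where the median of all genes shifts to 0.69, the split turned to 7 higher and 3 lower, with 63.2% of all genes called. In deposited TPM, where the median shifts to 0.21, it was 3 higher and 8 lower, with 38.1% of all genes called (limma-trend on log2(TPM + 1)).

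**Figure D2:**
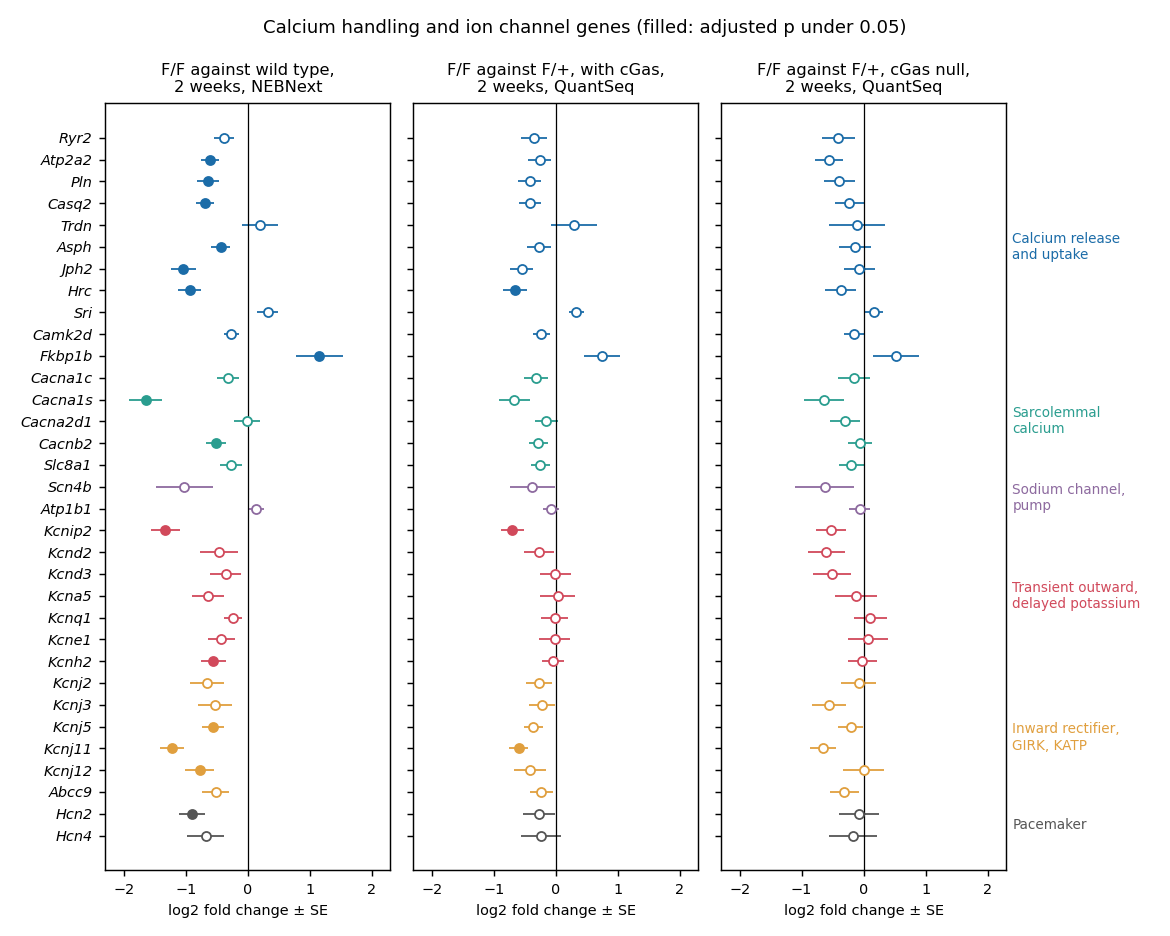
Log2 fold change ± SE of each member by role, for F/F against wild type at 2 weeks (NEBNext), F/F against F/+ with cGas and F/F against F/+ without cGas (both QuantSeq). Filled points passed an adjusted p under 0.05. The left panel holds 15 filled points, 14 of them below 0, the middle panel 3, all below 0, and the right panel 0.

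The groups with the largest number of calls were the genes of calcium release and uptake, of which 6 of 11 fell and 1 rose (median log2 fold change -0.44). Jph2 encodes junctophilin-2, which ties the surface membrane to the store. It had 163, 157, 135, 134 and 187 CPM in F/F hearts and 250.4 to 373 CPM in wild type hearts (median 295). The groups did not overlap, and the log2 fold change was -1.04 ± 0.20 (SE, edgeR adjusted p = 0.000423). Hrc, the histidine-rich calcium-binding protein of the store, had 1088, 792, 415, 745 and 779 CPM in F/F hearts and 1243 to 1699 CPM in wild type hearts (median 1463). Replicate 1 was the highest F/F library and still below every wild type library (log2 fold change -0.94 ± 0.18, SE, edgeR adjusted p = 0.000449).

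Casq2, the cardiac calsequestrin that buffers stored calcium, ranged from 518 to 989 CPM in F/F hearts and from 996 to 1561 CPM in wild type hearts. It fell by 0.69 ± 0.15 on the log2 scale without overlap (SE, edgeR adjusted p = 0.00104). Pln fell by 0.64 ± 0.18 (edgeR adjusted p = 0.00847) and Atp2a2 by 0.61 ± 0.15 (0.00404). Among F/F libraries both Pln and Atp2a2 were highest in replicate 1: Atp2a2 had 5139.5, 3195, 2436, 2948 and 2918 CPM in F/F hearts and 4525 to 5760.1 CPM in wild type hearts. Replicate 1 lay inside the wild type range and the other 4 F/F libraries below it. Asph, whose locus encodes the store proteins junctin and junctate, fell by 0.44 ± 0.16 (edgeR adjusted p = 0.0335). Per contractile transcript Atp2a2 and Asph turned to 0.03 and 0.20 and were not called.

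Fkbp1b was the member that rose, with 0.505, 2.23, 2.03, 1.604 and 1.21 CPM in F/F hearts and 0.633 to 0.790 CPM in wild type hearts (median 0.658). The 4 F/F libraries other than replicate 1 were above all wild type libraries, and replicate 1 was below them. Its log2 fold change was 1.15 ± 0.38 (SE, edgeR adjusted p = 0.0249), from only 9 to 77 reads in a library. Ryr2, the ryanodine receptor itself, was not called with all libraries in the fit (-0.39 ± 0.16, edgeR adjusted p = 0.0648). Its replicate 1 had 639 CPM, and the other 4 F/F libraries were below every wild type library. Camk2d, a kinase that phosphorylates the receptor and phospholamban, Sri, the calcium-binding protein sorcin, and Trdn, the receptor's anchor triadin, had values of -0.27, 0.32 and 0.19 and were not called either. Trdn had 536, 183, 63.8, 79.3 and 108 CPM in F/F hearts and 96.9 to 337 CPM in wild type hearts. Its fitted sign departs from its means, 194 ± 197 CPM in F/F and 206.5 ± 96.8 CPM in wild type hearts (SD), with replicate 1 above and 2 F/F libraries below every wild type library.

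Among the sarcolemmal calcium genes 2 of 5 fell. Cacna1s, the pore of the L-type channel of skeletal muscle, had 5.61, 3.64, 1.87, 2.49 and 3.84 CPM in F/F hearts and 7.45 to 14.0 CPM in wild type hearts (median 10.3). All F/F libraries were below all wild type libraries, and it fell by 1.65 ± 0.27 on the log2 scale (SE, edgeR adjusted p = 8.82e-05). Cacnb2, the beta subunit that brings the cardiac L-type channel to the membrane, fell by 0.52 ± 0.16 (edgeR adjusted p = 0.0183), but per contractile transcript it was at 0.12. The cardiac pore gene Cacna1c (-0.32 ± 0.17), the auxiliary Cacna2d1 (-0.02 ± 0.21) and the exchanger Slc8a1 (-0.27 ± 0.18) were not called. Of the sodium genes, the channel subunit Scn4b was at -1.03 ± 0.46 (edgeR adjusted p = 0.0967) and the sodium pump subunit Atp1b1 at 0.13 ± 0.13, and neither was called. The reading of Atp1b1 depends on the scale. In deposited TPM, where the median of all genes was also higher, it ran from 121.2 to 156.7 in F/F and from 93.84 to 121.0 in wild type hearts.

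Among the transient outward and delayed rectifier potassium genes 2 of 7 fell. Kcnip2 encodes KChIP2, the subunit that the fast transient outward channels need in mouse ventricle. It had 95.8, 53.8, 25.3, 36.7 and 50.5 CPM in F/F hearts and 109 to 156 CPM in wild type hearts (median 123). The groups did not overlap, and it fell by 1.33 ± 0.23 on the log2 scale (SE, edgeR adjusted p = 0.000158). The pores it serves, Kcnd2 (-0.47 ± 0.31) and Kcnd3 (-0.36 ± 0.25), were not called. Kcnh2, the pore of the rapid delayed rectifier, fell by 0.56 ± 0.20 without overlap (edgeR adjusted p = 0.038), though its value per contractile transcript was 0.09. Kcna5 (-0.64 ± 0.26, ultrarapid current), Kcnq1 (-0.24 ± 0.14) and its partner Kcne1 (-0.43 ± 0.22, slow delayed current) were not called.

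All 6 genes of inward rectifier, GIRK and ATP-sensitive potassium channels were below 0 and 3 of them fell. Kcnj11, the Kir6.2 pore of the ATP-sensitive channel, had 45.7, 32.7, 19.0, 26.03 and 31.3 CPM in F/F hearts and 62.2 to 79.5 CPM in wild type hearts (median 68.8). No F/F library reached the wild type range, and it fell by 1.22 ± 0.19 on the log2 scale (SE, edgeR adjusted p = 6.13e-05). Its regulatory partner Abcc9, the receptor SUR2, was at -0.52 ± 0.22 and not called. Kcnj12, a pore of the inward rectifier current, had 10.3, 9.16, 4.803, 6.91 and 7.42 CPM in F/F hearts and 9.84 to 19.3 CPM in wild type hearts (median 14.7). Replicate 1 of the F/F hearts overlapped the wild type range, and the fall was 0.78 ± 0.23 on the log2 scale (edgeR adjusted p = 0.0116).

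Kcnj5, a subunit of the GIRK channel that acetylcholine opens, fell by 0.56 ± 0.18 (edgeR adjusted p = 0.0213), with a value of 0.08 per contractile transcript. Its partner Kcnj3 (-0.53 ± 0.28) and the inward rectifier Kcnj2 (-0.66 ± 0.28) were not called. Of the pacemaker channels Hcn2 fell: it had 11.3, 9.06, 9.53, 7.60 and 12.9 CPM in F/F hearts and 12.4 to 24.3 CPM in wild type hearts (median 15.3). Only replicate 5 of the F/F hearts reached into the wild type range, and the log2 fold change was -0.90 ± 0.21 (SE, edgeR adjusted p = 0.00227). Hcn4 was at -0.68 ± 0.30 (edgeR adjusted p = 0.0941).

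**Figure D3:**
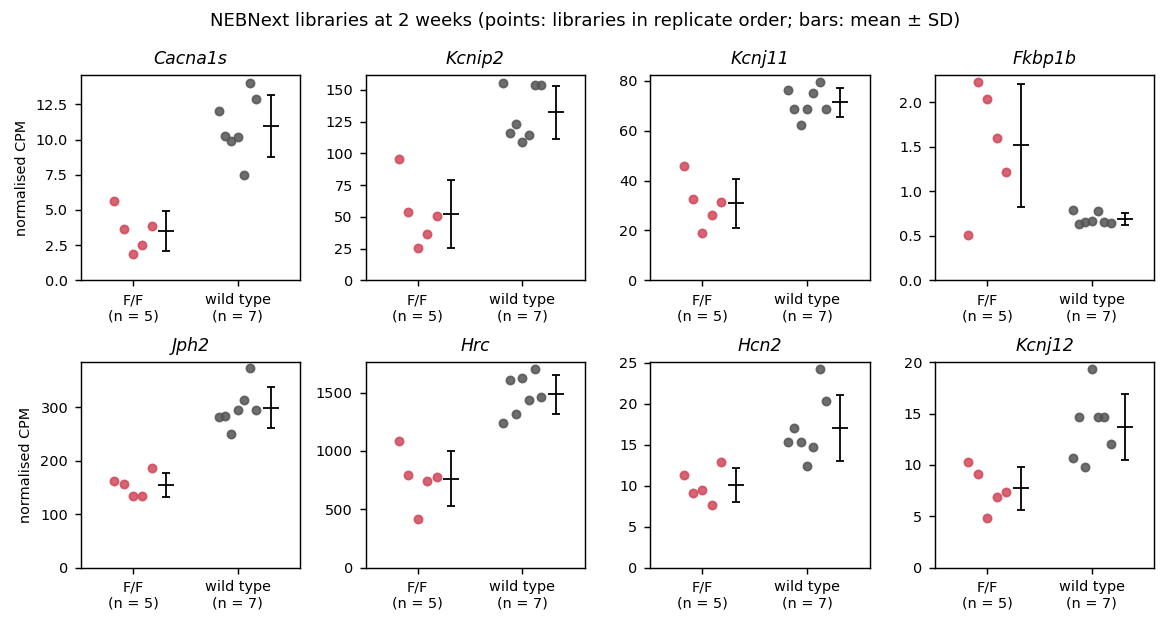
Normalised CPM of the 8 called members with the largest changes at 2 weeks, in each F/F (red, n = 5) and wild type library (grey, n = 7), points in replicate order, with mean ± SD beside them. Cacna1s, Kcnip2, Kcnj11, Jph2 and Hrc do not overlap between genotypes, and in Fkbp1b replicate 1 of the F/F hearts is the lowest point while the other 4 are the highest.

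In all, 7 members did not overlap between F/F and wild type hearts at 2 weeks, all lower in F/F: Casq2, Jph2, Hrc, Cacna1s, Kcnip2, Kcnh2 and Kcnj11. Over all genes 5.68% were lower without overlap and 6.68% higher. Without replicate 1 of the F/F hearts, 26 members were called, 25 lower and 1 higher, with 33.6% of all genes called and a members' median of -0.82. Ryr2, Camk2d, Cacna1c, Kcnj2, Kcnj3, Abcc9 and Hcn4 were not called with it. In each of these, every F/F library but replicate 1 was below all wild type libraries, and they are named for that pattern. The share of all genes with the same pattern was not computed, so it is not read as a result about the members. The calls of Atp2a2, Casq2, Jph2, Hrc, Cacna1s, Kcnip2, Kcnj11 and Hcn2 held without any 1 of the 12 libraries (edgeR, largest adjusted p 0.0247). Pln was lost without wild type replicate 7 (adjusted p = 0.0516) and Kcnj12 without wild type replicate 6 (0.0562). Cacnb2 was lost without F/F replicate 2 or 3 or wild type replicate 7 (up to 0.0817), and Kcnj5 without F/F replicate 2 or 3 or wild type replicate 6 (up to 0.0848). Fkbp1b was lost without F/F replicate 2 or 3 or wild type replicate 6 or 7, with a log2 fold change of 0.71 and an adjusted p of 0.279 without F/F replicate 2. Asph lost its call on leaving out any of F/F replicates 2, 3, 4 and 5 and wild type replicates 2, 6 and 7 (up to 0.13), and Kcnh2 without any of F/F replicates 2, 3 and 4 and wild type replicates 4, 5, 6 and 7 (up to 0.167).

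The libraries of 2 weeks came from 2 sequencing pools. Within pool KIUC033 (2 F/F and 5 wild type libraries, replicate 1 of F/F among them) 3 members were called by edgeR, with 2.5% of all genes called, namely Jph2 (-0.86 ± 0.14), Cacna1s (-0.96 ± 0.18) and Kcnj11 (-0.82 ± 0.17). Within pool KIUC035 (3 F/F and 2 wild type libraries) 22 were called, 21 lower and 1 higher, with 32.5% of all genes called, and the same genes were at -1.14 ± 0.22, -2.39 ± 0.28 and -1.61 ± 0.22. Kcnip2 was at -0.65 ± 0.20 in the first pool (edgeR adjusted p = 0.111) and at -2.16 ± 0.24 in the second (0.00125), and Hrc at -0.57 ± 0.17 (0.102) and -1.43 ± 0.28 (0.00965). The members' median was -0.22 in the first pool and -0.80 in the second. Each of the 15 called members kept its sign in both, though 12 of them were not called in the first. The 15 were called from the libraries of both pools together, so the shared sign is no separate support. Casq2 was called in neither pool (-0.59 ± 0.17, adjusted p = 0.0917, and -0.81 ± 0.28, 0.0629, by edgeR). The difference between the pools was not tested.

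Contractile genes and cardiomyocyte markers fell as well, and so did some markers of other cells. Of 16 genes of the contractile apparatus 14 fell (median log2 fold change -0.63), and the summed level of 6 cardiomyocyte markers was 39033 to 60693 CPM in F/F hearts and 76455 to 94629.6 CPM in wild type hearts. The 6 markers are Myh6, Tnnt2, Tnni3, Actc1, Ryr2 and Mb. Ryr2 is itself a member, and Myh6, Tnnt2, Tnni3 and Actc1 are also among the contractile genes, so these lists are not separate from each other. All 6 macrophage markers rose, with sums of 572 to 2717 CPM in F/F hearts, replicate 1 being the lowest, and 346 to 537 CPM in wild type hearts. Of 6 fibroblast markers 4 rose, with sums of 1263 to 2072 CPM in F/F and 752 to 1182 CPM in wild type hearts. All 5 endothelial markers were below 0 and 2 of them were called lower (median log2 fold change -0.48). Of 6 pericyte markers 2 were called lower, beside 13% of all genes. No marker of these lists was at 0. In RNA of whole hearts, fewer cardiomyocytes and less of a transcript in each cardiomyocyte cannot be told apart. Scaled to the contractile genes, 7 members were higher in F/F hearts, namely Trdn, Sri, Camk2d, Fkbp1b, Cacna2d1, Atp1b1 and Kcnq1 (0.37 to 1.84), among 62.2% of all genes that were. Cacna1s (-1.02 ± 0.26, adjusted p = 0.00178), Kcnip2 (-0.71 ± 0.20, 0.00347) and Kcnj11 (-0.58 ± 0.18, 0.00728) stayed lower by the same edgeR test, among 0.992% of all genes. Atrial markers varied widely within both genotypes, from 6.20 to 348 CPM in F/F hearts and from 5.58 to 475 CPM in wild type hearts, and 15 members were called with an atrial score in the fit as well.

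**Figure D4:**
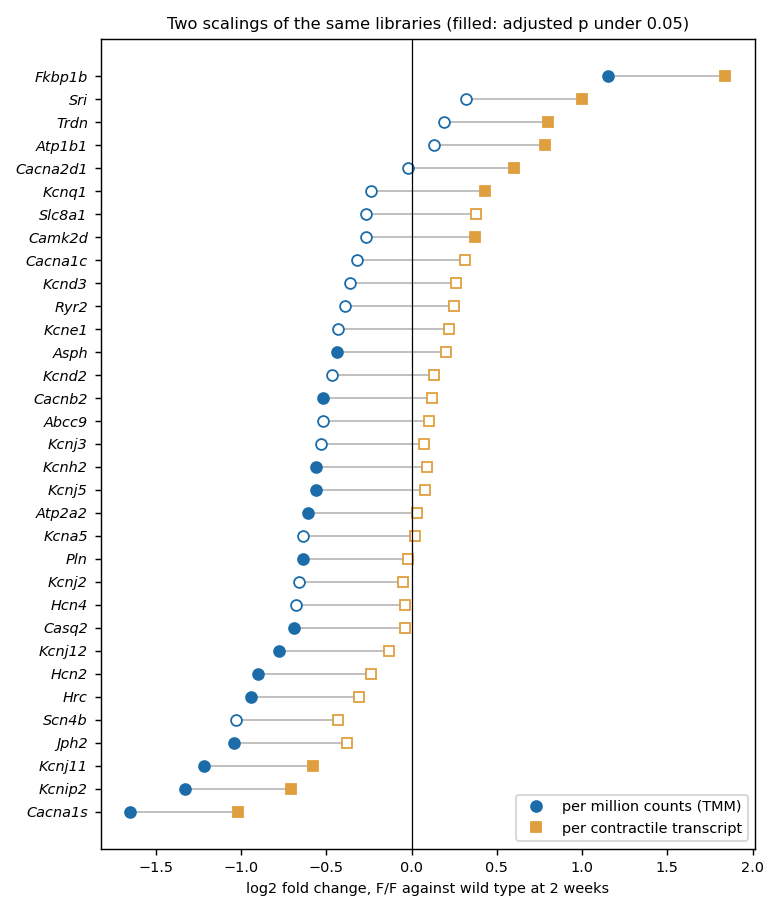
Log2 fold change of the 33 members, F/F against wild type at 2 weeks, scaled to library size (blue circles) and per contractile transcript (orange squares), filled where adjusted p was under 0.05. Each member moves to the right on the second scale, Cacna1s, Kcnip2 and Kcnj11 stay called below 0, and 7 members are called above it.

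Because 1 week and 2 weeks were sequenced in different pools, a change of the genotype effect with time cannot be told apart from the pools. The F/F effect differed between 2 weeks and 1 week for 7 members, 6 more negative and 1 more positive at 2 weeks, where 12.4% of all genes differed (5.88% more negative and 6.52% more positive). Hcn2 was at -0.90 at 2 weeks and 0.72 at 1 week, a difference of -1.62 ± 0.32 (SE, edgeR adjusted p = 0.00272). Its F/F libraries of 1 week had 21.6, 18.7, 16.4 and 13.7 CPM, beside 18.3, 9.64, 10.3, 9.04 and 8.37 CPM in wild type, so 4 of the 5 wild type libraries lay below every F/F library. Cacna1s differed by -1.59 ± 0.39 (adjusted p = 0.011), Kcnip2 by -1.39 ± 0.34 (0.0101), Jph2 by -1.26 ± 0.29 (0.00728) and Kcnj11 by -1.25 ± 0.28 (0.00599) in the same test.

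Those 5 held without any 1 of the 21 libraries, and the other 2 did not. Kcna5, the pore of the ultrarapid potassium current, was at -0.64 at 2 weeks and 0.62 at 1 week, and its difference of -1.26 ± 0.39 (edgeR adjusted p = 0.0356) was lost without any of 7 libraries. These were replicates 1 and 3 of F/F and 4 and 5 of wild type at 1 week, and replicates 2 and 4 of F/F and 6 of wild type at 2 weeks (adjusted p up to 0.145). The rise of Fkbp1b, 1.92 ± 0.60 (adjusted p = 0.0363), was lost without any of 9 libraries, namely F/F replicates 1, 2 and 4 and wild type replicates 3 and 5 at 1 week, and F/F replicates 2 and 3 and wild type replicates 6 and 7 at 2 weeks (up to 0.127). Fkbp1b had only 7 to 17 reads in a library of 1 week. Without replicate 1 of F/F at 2 weeks, 15 members differed, with 18.9% of all genes. Per contractile transcript the split was 4 more positive and 3 more negative, with 32.3% of all genes called and a median of 0.63, and in deposited TPM it was 0 and 5, with 13.6%.

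**Figure D5:**
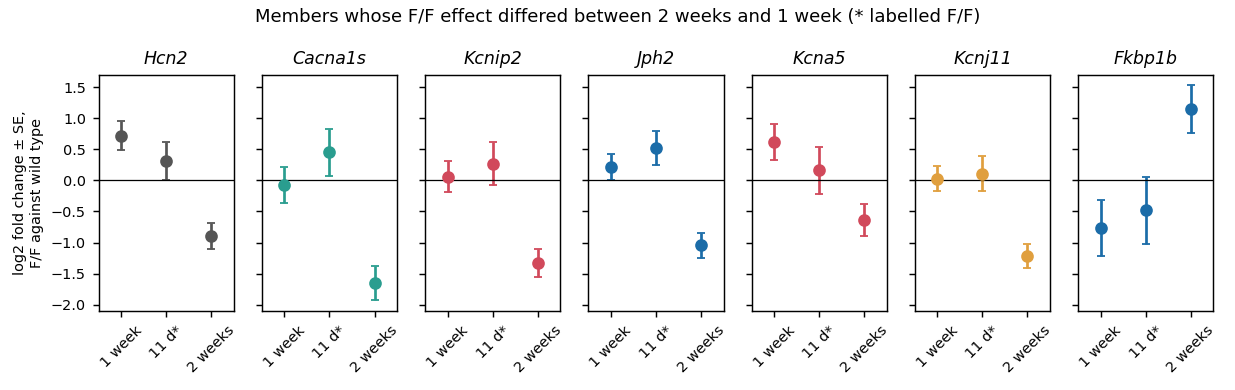
Log2 fold change ± SE of F/F against wild type at 1 week, 11 days (labelled F/F) and 2 weeks for the 7 members whose effect differed between 2 weeks and 1 week. Hcn2 and Kcna5 are above 0 at 1 week and below it at 2 weeks, Fkbp1b the reverse, and the other 4 are within 0.22 of 0 at 1 week.

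In the second experiment, with cGas present, 3 members were lower in F/F than in F/+ hearts and 0 were higher, where 4.63% of all genes were called (0.891% lower and 3.74% higher). Kcnip2 ranged from 21.4 to 64.9 CPM in F/F libraries (median 42.3) and from 59.1 to 75.2 CPM in F/+ libraries (median 72.5). Only the highest F/F library reached into the F/+ range, and the log2 fold change was -0.70 ± 0.19 (SE, edgeR adjusted p = 0.0348). Kcnj11 ranged from 11.2 to 26.01 CPM in F/F (median 23.5) and from 27.8 to 35.1 CPM in F/+ libraries (median 32.7). It was the 1 member whose groups did not overlap, as for 0.682% of all genes (2.39% were higher in F/F without overlap, 3.07% in all), and fell by 0.60 ± 0.16 (edgeR adjusted p = 0.0334). Hrc ranged from 170 to 395 CPM in F/F (median 246) and from 326 to 676 CPM in F/+ libraries (median 375), which overlapped, and fell by 0.66 ± 0.19 (edgeR adjusted p = 0.0488).

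These 3 were also among the 14 that fell in the time course, and 30 members were not called. The median over all members was -0.27, beside -0.01 over all genes, and 29 of 33 were below 0. Cacna1s was at -0.67 ± 0.25 (edgeR adjusted p = 0.134) from 11 to 35 tags in a library, Jph2 at -0.55 ± 0.19 (0.105), Sri at 0.33 ± 0.12 (0.121) and Fkbp1b at 0.75 ± 0.29 (0.146). The calls lay close to the threshold. None of the 3 was called without F/F replicate 1 or 5 or F/+ replicate 1, 2, 3 or 5, 1 was called without F/F replicate 2 or 3, and 0 in a fit of these 12 libraries alone. Over the 12 omissions the fall ran from 0.57 to 0.86 for Kcnip2, 0.49 to 0.72 for Kcnj11 and 0.48 to 0.78 for Hrc, with adjusted p up to 0.132, 0.141 and 0.247, Hrc being smallest without F/+ replicate 1. Per contractile transcript, where the median of all genes was 0.45, the 3 were at -0.23, -0.14 and -0.21 and not called, and Sri (0.82) and Fkbp1b (1.27) were called higher, with 12.5% of all genes called. Here 5 of 6 macrophage markers rose, with sums of 392 to 1042 CPM in F/F and 232 to 327 CPM in F/+ hearts. The 6 cardiomyocyte markers summed to 18101 to 27893 CPM in F/F and 23436 to 39888 CPM in F/+ hearts with 0 called, and the part of either list in the results was not tested.

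Without cGas no member was called between F/F and F/+ hearts, where 0.527% of all genes were (0.5% higher and 0.027% lower). At an unadjusted p under 0.05 edgeR left 1528 genes, and DESeq2 called 0 members. The median was -0.17, beside -0.02 over all genes, and Kcnip2, Kcnj11 and Hrc were at -0.53 ± 0.24, -0.65 ± 0.21 and -0.37 ± 0.25 (SE). Kcnj11 had 20.7, 27.1, 22.6 and 26.9 CPM in F/F and 32.1, 40.1, 35.8 and 33.4 CPM in F/+ hearts, and all F/F libraries were below all F/+ libraries. Groups did not overlap for 3 members, Kcnj11, Hrc and Cacna1s, all lower in F/F, as for 2.23% of all genes (3.21% were higher without overlap, 5.44% in all). The F/+ libraries here were all male and the F/F libraries of both sexes, and overlap is not adjusted for sex. Per contractile transcript, where the median of all genes was 0.17, 0 members were called. Kcnip2 overlapped by 1 library, with 47.5, 57.7, 57.0 and 73.3 CPM in F/F and 72.2, 88.8, 74.5 and 83.9 CPM in F/+ hearts.

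Whether the F/F effect depended on cGas was tested directly, as the effect without cGas minus that with it. No member differed and 0% of all genes did, with 215 genes at an unadjusted p under 0.05 in edgeR and 0 members by DESeq2. The differences were 0.17 ± 0.31 for Kcnip2, -0.05 ± 0.26 for Kcnj11 and 0.29 ± 0.32 for Hrc (SE), and their median over all members was 0.04. The SEs of these differences ran from 0.20 to 0.60 over the members, beside effects with cGas of 0.75 or less in size, so the test does not show that the effects were alike. Loss of cGas itself called 0 members in F/F hearts and 0 in F/+ hearts, with 0% of all genes in either, and at an unadjusted p under 0.05 edgeR left 850 and 616 genes. DESeq2 called 0 members in both. No member separated cGas null from cGas wild type hearts without overlap, where 1.07% of all genes did in F/F hearts (0.412% lower and 0.655% higher in cGas null) and 0.783% in F/+ hearts (0.466% lower and 0.317% higher). In F/+ hearts this sets all-male cGas null libraries beside wild type libraries of both sexes.

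Among 93 other calcium and channel genes, 80 were tested at 2 weeks in the time course, 11 rose and 18 fell (median -0.15), beside 16.2% of all genes that rose and 13% that fell. Among those with large changes were Kcnab2, a potassium channel beta subunit, at 1.72 ± 0.31 (SE, edgeR adjusted p = 0.000217), and Fxyd5, a regulator of the sodium pump, at 1.68 ± 0.27 (7.66e-05). Kcne4, an inhibitory potassium channel subunit, was at 1.58 ± 0.28 (0.000203), and Strit1, which encodes the SERCA activator DWORF, fell by 1.47 ± 0.32 (0.00138). Strit1 ranged from 9.07 to 56.7 CPM in F/F and from 48.5 to 110 CPM in wild type hearts, which overlapped. With cGas, 3 of 77 tested genes of this list were called, all higher in F/F than in F/+ hearts, a share near the 3.74% of all genes that were, and the 3 include Kcnab2 at 1.12 ± 0.31 and Fxyd5 at 0.92 ± 0.21 (edgeR adjusted p = 0.0367 and 0.0129). Without cGas 0 of 77 were called, and Kcnab2 and Fxyd5 were at 1.39 ± 0.39 and 1.12 ± 0.26 (edgeR adjusted p = 0.101 and 0.0507). Between 2 weeks and 1 week the F/F effect differed for 14 of the 80, 6 more positive and 8 more negative, beside 6.52% and 5.88% of all genes. They include Slc4a3, a bicarbonate exchanger, at -1.08 ± 0.20 (edgeR adjusted p = 0.00209), and Tmem38b, a counter-ion channel of the store, at 0.97 ± 0.19 (0.00308).

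Of 20 regulators of channel genes, 2 rose and 5 fell at 2 weeks, beside 16.2% of all genes that rose and 13% that fell. Klf15, a Krüppel-like factor that in mice drives the daily rhythm of Kcnip2, ranged from 16.1 to 44.4 CPM in F/F (median 31.7) and from 43.8 to 85 CPM in wild type hearts (median 75.9), overlapping at the edges. It fell by 1.19 ± 0.21 on the log2 scale (SE, edgeR adjusted p = 0.000221). Irx4, a ventricular homeobox factor, fell by 0.65 ± 0.13 (0.000554), and Nkx2-5, a cardiac homeobox factor, by 0.52 ± 0.18 (0.0285). Tbx18, a T-box factor of the sinus node and epicardium, rose by 0.65 ± 0.21 (0.0239), and Rest, a repressor of neuronal and fetal cardiac genes, by 0.61 ± 0.22 (0.0392). With cGas 0 of the 20 were called between F/F and F/+ hearts, and Klf15 was at -0.41 ± 0.23 there and at -0.70 ± 0.29 without cGas. The F/F effect differed between 2 weeks and 1 week for 3 of them, all more negative at 2 weeks, beside 12.4% of all genes that differed, 5.88% in that direction. The differences were -1.52 ± 0.31 for Klf15, -0.91 ± 0.19 for Irx4 and -0.75 ± 0.20 for Gata4, a zinc finger factor of the heart (edgeR adjusted p = 0.00378, 0.00398 and 0.018).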

How the data were processed

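RNA of perfused mouse hearts was read in 26 NEBNext and 20 QuantSeq libraries. The submitters' processing notes name STAR 2.7.9 and the build mm39. How reads were counted, with which annotation and strand setting, is not stated in those sources. Genes that overlap another on the opposite strand (Pln and Cep85l, Asph and Clvs1, Cacna1c and Dcp1b, Atp1b1 and Nme7, Kcnq1 and Kcnq1ot1, Kcnd3 and Kcnd3os) may therefore share reads. The authors deposited raw counts for 55359 genes, and 0 entries name no gene. They also deposited TPM, per the file headers; the 20 QuantSeq columns of that table are deposited CPM (equal to library-scaled counts within 0.01) and were used for no test. All columns matched a sample by title, and 0 were left without one.

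Groups follow the labels. The 33 members, the role lists and the other lists were chosen with earlier results of these data known. Counts of each kit were fitted apart in edgeR 4.0.16 (R 4.3.3), with TMM scaling, a filter on low counts (filterByExpr, minimum count 10, minimum total 15; 15627 genes in NEBNext and 14812 in QuantSeq), all groups of the kit in 1 quasi-likelihood fit, with sex as a covariate and, among libraries of 2 weeks, sequencing pool. A gene was called at a Benjamini-Hochberg adjusted p under 0.05 over all genes tested. The CPM printed are normalised by these factors. Exact permutation tests of Lmna and Cgas used scipy 1.17.1. The same fit was also run on simulated counts with known changes, and that outcome is not reported here. Replicates of 1 group differed by more than counting error in all 93 pairs (smallest chi-square per degree of freedom 8.92).

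Alternatives were RLE scaling by edgeR in place of TMM, the DESeq2 1.42.0 test, no filter, no covariates, scaling to contractile genes, no mitochondrial mRNAs, an atrial score as covariate, limma-trend 3.58.1 on log2(TPM + 1) and log2(TPM + 0.1), the groups compared alone, each pool alone, and each library left out. Every called member is named, the 8 with the largest changes and any called against the majority with library values, and at most 5 called genes of each other list by size of change. 1 gene that this rule names is not reported here. Single values of members that were not called, and library values of Atp2a2 and Trdn, were chosen after they were seen. Promoters come from a RefSeq table of GRCm38.p6, matched by symbol.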

Additional observations from a re-analysis of the deposited data

Results flagged for a closer look

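Atp2a2 at 2 weeks had 1 F/F library far from the others: replicate 1 was at 5139.5 CPM and the next at 3194.7 CPM. Hrc had 1 such library among F/+ hearts with cGas, replicate 1 at 675.5 CPM with the next at 424.5 CPM. These are 2 of 36 groups of libraries examined, and chance marks about 1 in 20.

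The F/F effect differed between 2 weeks and 1 week in the edgeR test of the difference for 7 members. The difference, as the effect at 2 weeks minus that at 1 week, was -1.62 for Hcn2 (adjusted p = 0.00272), -1.59 for Cacna1s (0.011), -1.39 for Kcnip2 (0.0101), -1.26 for Jph2 (0.00728), -1.26 for Kcna5 (0.0356), -1.25 for Kcnj11 (0.00599) and 1.92 for Fkbp1b (0.0363).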

How the results depend on the processing

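No paired analysis was possible because the titles of the libraries carry no number shared between groups. With no filter on low counts, 1 member was called at 1 week, 1 in cGas null against wild type hearts on F/F and 1 on F/+, where the filtered fits called 0. At 2 weeks pool KIUC033 alone gave 3 calls in place of 15, with 2.5% of all genes called in place of 29.2%. With cGas the fit of the groups compared alone gave 0 in place of 3. Per contractile transcript Atp2a2 (0.03), Asph (0.20), Cacnb2 (0.12), Kcnh2 (0.09) and Kcnj5 (0.08) changed sign at 2 weeks. With a library left out, the calls ran from 10 to 26 at 2 weeks, from 5 to 15 for the difference of 2 weeks and 1 week, from 0 to 4 with cGas, and were 0 throughout at 1 week, at 11 days, without cGas, for the difference with and without cGas and for both cGas null comparisons. The 26 and the 15 came without F/F replicate 1 of 2 weeks, where 33.6% and 18.9% of all genes were called. Where no share of all genes stands beside a count, that count is not read as a result about the members. RLE scaling, no mitochondrial mRNAs, an atrial score and DESeq2 each kept the 15 calls of 2 weeks, DESeq2 adding 1. Other settings kept fewer of the 15. With limma-trend on log2(TPM + 1) and on log2(TPM + 0.1), 9 were kept and 6 had the same sign but were not called. Scaled to contractile genes, 4 were kept, 6 had the same sign but were not called, and 5 changed sign. With cGas 2 of the 3 calls were kept without covariates, where Hrc had an edgeR adjusted p of 0.0544, and with an atrial score, where Kcnj11 had 0.0504. Depth limits Fkbp1b, with 7 to 17 reads in the libraries of 1 week and 9 to 77 in those of 2 weeks, and Cacna1s in QuantSeq. The fit of the groups compared alone was not run for the difference with and without cGas, which uses every QuantSeq library already.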
